A study of Mus musculus with 16 samples.

Results

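Muscle cells contract by sliding actin filaments along myosin filaments, and 10 genes of this machinery were followed here in mouse neural stem and progenitor cells with and without the histone acetyltransferase KAT7 (also called HBO1, gene Kat7). They are the 4 muscle actin genes Acta2, Actc1, Acta1 and Actg2, the actin-binding genes Tagln, Cnn1, Tpm1 and Tpm2, the myosin light chain gene Myl9 and the intermediate filament gene Des. Acta2 and Actc1 were chosen by their measured levels, as genes that stood out as higher without KAT7, so their genotype differences are described and not tested. The other 8 were named for their function, to ask whether a wider contractile set moved with them. The 10 are among 27179 genes counted. Of the 15177 genes with enough counts to be tested, 8 are on the list, all but Actg2 and Cnn1. The libraries fall into 4 groups of 4. Null cells carried 2 floxed Kat7 alleles with a Cre transgene driven by Nestin sequences (Kat7lox/loxNesCreT/+). Intact cells were wild type at Kat7 and carried the same Cre transgene (Kat7+/+NesCreT/+), so Cre was common to all 4 groups. Cells came from the E14.5 cortex and ganglionic eminences (E for embryonic day) of 4 foetuses per genotype in each condition and were grown as neurospheres. Whether the 2 conditions share foetuses is not stated. The proliferating groups were sampled 3 days after passage 3, and the differentiating groups after 3 days in cortical neuron medium on a laminin substrate. Nestin-driven Cre acts from the neural lineage onward, so a cell of another origin in these cultures need not have lost Kat7.

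In smooth muscle, the actin of Acta2 and Actg2 works with smooth muscle myosin, the light chain of Myl9, calponin (Cnn1), transgelin (Tagln) and tropomyosins (Tpm1, Tpm2). Actc1 is the main actin of the heart and Acta1 that of skeletal muscle, and desmin (Des) links the contractile units of all muscle types. Many of these genes are controlled by serum response factor (SRF), which binds a DNA element called the CArG box together with the cofactors myocardin or MRTF. In the developing brain, Acta2 and its partners are best known from the smooth muscle cells and pericytes of vessels, whereas neural progenitors build their cytoskeleton mainly from the cytoplasmic actins of Actb and Actg1.

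The CArG box is CC, then 6 bases that are each A or T, then GG. It reads the same on both strands, so a match on one strand is a match on the other. In RefSeq's promoter sequences of GRCm38.p6 (the assembly that mm10 names), 8 of the 10 genes had an entry: Acta2, Actc1, Acta1, Cnn1, Myl9, Tpm1, Tpm2 and Des. Within the 250 bases before the annotated start, Actc1, Acta1 and Myl9 held an exact match, and Acta2 held 2 boxes in which 1 of the inner 6 bases was C or G. An exact match stood in 378 of 27025 promoters of the same length (1.4%), and a box with 1 such base in 1994 of them (7.38%). In Cnn1, Tpm1, Tpm2 and Des neither form occurred in this window. The sequences below are those of the genes that held either form in this window, chosen by the boxes and not by genotype differences. They run 5′ to 3′ on the strand of the gene, with exact and 1-off boxes in capitals. The 3 longer ones leave out bases in annotated exons, and Acta2 is shown by its boxes and the 10 bases on either side.
Acta2, first box (chr19:34255438-34255467, minus strand, within the first exon of a longer transcript in GENCODE M21): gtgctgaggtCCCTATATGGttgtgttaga
Acta2, second box (chr19:34255388-34255417, minus strand, same exon): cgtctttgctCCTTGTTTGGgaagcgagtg
Actc1 (chr2:114052888-114053125, minus strand): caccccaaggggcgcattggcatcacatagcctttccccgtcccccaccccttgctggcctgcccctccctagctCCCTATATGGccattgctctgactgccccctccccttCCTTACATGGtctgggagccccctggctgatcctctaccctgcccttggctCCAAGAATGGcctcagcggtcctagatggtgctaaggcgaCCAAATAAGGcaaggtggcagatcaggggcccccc
Acta1 (chr8:123894776-123895025, minus strand): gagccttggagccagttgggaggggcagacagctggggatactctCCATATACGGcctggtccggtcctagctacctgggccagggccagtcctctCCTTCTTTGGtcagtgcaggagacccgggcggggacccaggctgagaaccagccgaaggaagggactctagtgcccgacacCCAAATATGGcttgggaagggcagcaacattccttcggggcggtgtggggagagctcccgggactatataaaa
Myl9 (chr2:156775214-156775407, plus strand): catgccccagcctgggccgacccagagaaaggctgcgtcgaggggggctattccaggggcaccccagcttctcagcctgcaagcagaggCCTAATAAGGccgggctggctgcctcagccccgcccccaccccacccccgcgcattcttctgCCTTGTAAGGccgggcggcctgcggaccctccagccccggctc
The exact boxes are CCAAATAAGG in Actc1, 47 to 38 bases before the start, CCAAATATGG in Acta1, 73 to 64 bases before it, and CCTAATAAGG in Myl9, 161 to 152 bases before it. The 2 boxes of Acta2 lie 84 to 75 and 34 to 25 bases before the start used by RefSeq's promoter table. A match of letters is a description and not a binding site.

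Library totals were 16.8 to 47.9 M counts, and 16322 to 18774 genes had at least 1 count. Kat7 itself had 8 counts over the 4 null proliferating libraries and 1 count over the 4 null differentiating libraries, against 138 to 143 CPM (counts scaled to a library of 1 M) in intact proliferating and 106 to 111 CPM in intact differentiating libraries. The progenitor genes Nes (1216 and 1521 CPM as group means in intact and null proliferating cells) and Sox2 (524 and 346 CPM) were abundant in both genotypes. Null proliferating replicate 4 stood apart from its group in several contractile genes, and values without it are given beside the results it moves. The 2 intact libraries numbered 1 had the lowest correlation with the rest of their groups over all genes, and counts without both are given where they differ.

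Acta2, the actin of vascular smooth muscle, had the highest level of the 4 muscle actins in null proliferating cells. It was at 31.1, 41.9, 38.4 and 116 CPM in null proliferating replicates 1 to 4 and at 3.32, 3.26, 3.91 and 2.17 CPM in the intact ones. In differentiating cells it was at 4.87, 1.91, 1.23 and 4.04 CPM in null and 0.437, 0.319, 0.377 and 0.570 CPM in intact libraries. In both conditions all null libraries were above all intact ones, and null proliferating replicate 4 was about 3 times the others of its group (3.03 times their median). The log2 fold change of null against intact was 4.25 ± 0.48 (SE) in proliferating and 2.86 ± 0.55 in differentiating cells, given as a description because this rise chose the gene. Without null proliferating replicate 4 it was 3.63 in proliferating cells. The order of the 4 groups was null proliferating, then intact proliferating and null differentiating, which overlapped, then intact differentiating. In bulk RNA, more cells of a type and more RNA per cell cannot be told apart.

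Actc1, the heart actin, did not share this pattern. Its levels were 2.73, 5.00, 4.69 and 20.5 CPM in null proliferating replicates 1 to 4 and 16.8, 8.72, 9.22 and 9.20 CPM in intact proliferating replicates 1 to 4. In null proliferating cells, 3 libraries were below every intact library and replicate 4 was above all of them. The log2 fold change in proliferating cells was -0.31 ± 0.48 with all libraries and -1.33 without null proliferating replicate 4, so Actc1 did not stand higher without KAT7 in this condition. In differentiating cells the null libraries held 17.0, 18.5, 11.1 and 13.5 CPM and the intact libraries 0.408, 0.757, 0.377 and 0.950 CPM, with no overlap. The log2 fold change there was 4.67 ± 0.59, again a description with no test. Each of the 4 null differentiating libraries was above the 6 proliferating libraries other than null replicate 4 and intact replicate 1.

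The other muscle actins were scarce. Acta1, the skeletal muscle actin, was at 0.651 to 1.13 CPM in null proliferating, 0.454 to 0.708 in intact proliferating, 0.576 to 0.736 in null differentiating and 0.319 to 0.670 in intact differentiating libraries. All 4 groups overlapped with at least one other, and the log2 fold changes of 0.59 ± 0.29 in proliferating cells (edgeR quasi-likelihood test, Benjamini-Hochberg adjusted p = 0.122) and 0.48 ± 0.28 in differentiating cells (adjusted p = 0.185) did not pass the threshold of 0.05. Actg2, the actin of visceral smooth muscle, had 6, 7, 11 and 31 counts in null proliferating replicates 1 to 4 and 6, 0, 0 and 2 counts in the intact ones, and 5 and 8 counts over all null and all intact differentiating libraries. It did not pass the filter on low counts. With no filter its log2 fold change in proliferating cells was 2.38 (edgeR adjusted p = 0.0647), and without the 2 intact libraries numbered 1 it was 3.99 (edgeR adjusted p = 0.00554). It passed the filter in 13 of the 16 fits without 1 library and was called in 8 of them, some of which left out a differentiating library (log2 fold changes 1.96 to 3.98, edgeR adjusted p = 0.010 to 0.11). The highest value was without intact proliferating replicate 1. All of these values rest on few counts.

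Set against each other per length (RPKM, CPM per kilobase of the deposited gene model), the muscle actins changed places between groups. Acta2 was at 32 ± 22.3 RPKM (mean ± SD, n = 4) and Actc1 at 5.93 ± 5.94 RPKM in null proliferating cells, against 1.78 ± 0.408 and 7.90 ± 2.78 RPKM in intact proliferating cells. In null differentiating cells Acta2 was at 1.69 ± 0.968 and Actc1 at 10.8 ± 2.40 RPKM. Acta2 made up 80.1 to 87.2% of the muscle actin RPKM in the null proliferating libraries, 12.9 to 24.0% in intact proliferating, 7.27 to 18.1% in null differentiating and 18.9 to 23.9% in intact differentiating libraries. Actc1 held 72.5 to 83.3% in intact proliferating and 77.5 to 90.0% in null differentiating libraries. Acta2 was thus the leading muscle actin in 1 group, the null proliferating cells, in each of its 4 libraries, replicate 4 included.

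**Figure D1:**
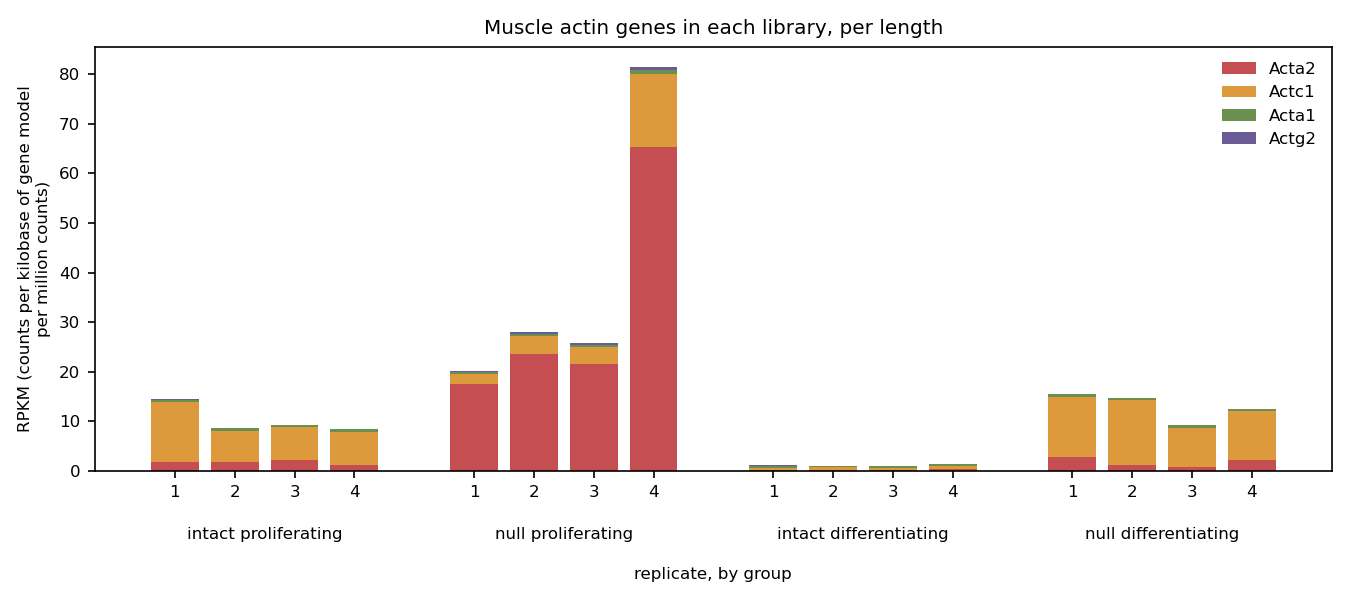
Stacked bars give the level of the 4 muscle actin genes in each of the 16 libraries in RPKM (linear axis), by group and replicate. Acta2 (red) makes up most of the bar in the 4 null proliferating libraries and Actc1 (orange) in the intact proliferating and null differentiating ones, and null proliferating replicate 4 reaches 81.5 RPKM.

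Even where they were highest, the muscle actins were a small part of all actin mRNA. Together they were 1.25, 1.54, 1.40 and 4.87% of the RPKM of all actin genes (the 4 muscle actins, Actb and Actg1) in null proliferating replicates 1 to 4. The share was 0.576 to 0.978% in intact proliferating, 0.733 to 1.11% in null differentiating and 0.0674 to 0.0982% in intact differentiating libraries. All null proliferating libraries were above those of the other groups, and all intact differentiating libraries below them. The cytoplasmic actin gene Actg1 rose in proliferating cells from 775 ± 17 CPM with KAT7 to 999 ± 35 CPM without it (log2 fold change 0.44 ± 0.06, edgeR adjusted p = 4.01e-05). In differentiating cells its log2 fold change was 0.00 ± 0.06 (edgeR adjusted p = 0.971).

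Among the actin-binding genes, Tagln was the one that rose beside Acta2 in proliferating cells. Transgelin, its product, is an actin-bundling protein widely used as an early marker of smooth muscle. Tagln was at 17.8, 13.9, 14.8 and 3.83 CPM in null proliferating replicates 1 to 4 and at 3.58, 3.48, 3.73 and 2.79 CPM in the intact ones. Replicates 1 to 3 of the null cells were far above the intact libraries, and replicate 4, which had the most Acta2, was barely above them. Against intact cells its log2 fold change was 1.97 ± 0.37 (edgeR adjusted p = 7.79e-04), and 2.28 without null proliferating replicate 4 (edgeR adjusted p = 1.19e-05). After differentiation Tagln was at 0.771, 0.394, 0.459 and 0.462 CPM in null and 0.757, 0.319, 0.419 and 0.412 CPM in intact libraries, which overlapped (log2 fold change 0.17 ± 0.45, edgeR adjusted p = 0.786). Tagln overlaps the convertase gene Pcsk7 on the genome, and how the counting treated strand is not given in the sources used. Pcsk7 had 16056 counts over the 16 libraries against 1705 for Tagln and was higher in null proliferating cells by a log2 fold change of 0.41 ± 0.06 (edgeR adjusted p = 1.41e-04). Its part in the Tagln counts was not tested.

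Cnn1, which encodes the smooth muscle calponin that restrains actomyosin, was barely detected, with 28 counts in all 16 libraries, 9 in null and 19 in intact ones. Its highest library was intact proliferating replicate 4 with 9 counts. It was not tested, and no rise beside Acta2 was detectable at this depth.

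Neither tropomyosin, the proteins that run along the actin filament and regulate access of myosin, was called higher. The counts are by gene and do not separate different transcripts of a gene. Tpm1 was the most abundant gene of the list in every group. It was at 98, 101, 98.7 and 108 CPM in null proliferating replicates 1 to 4 and at 117, 127, 127 and 126 CPM in the intact ones, and at 66.9, 65.3, 65.7 and 63.0 CPM in null and 83.8, 82.2, 78.9 and 76.4 CPM in intact differentiating libraries. In each condition all null libraries were below all intact ones. The difference was small, a log2 fold change of -0.22 ± 0.06 in proliferating (edgeR adjusted p = 0.0109) and -0.21 ± 0.06 in differentiating cells (edgeR adjusted p = 0.00997), and it was lost in both conditions when the test asked for more than 1.5-fold (edgeR adjusted p = 1). Tpm2 was at 4.72, 4.59, 5.68 and 2.40 CPM in null proliferating replicates 1 to 4 against 3.41 to 4.07 CPM in the intact libraries, and at 0.480 to 0.981 against 0.570 to 0.844 CPM after differentiation. Its genotype groups overlapped in both conditions (log2 fold changes 0.25 ± 0.26, edgeR adjusted p = 0.477, and 0.05 ± 0.30, adjusted p = 0.900), and as with Tagln its lowest null proliferating library was replicate 4.

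Myl9, the regulatory light chain of smooth muscle and non-muscle myosin, was higher without KAT7 in both conditions. In proliferating cells it was at 18.2, 17.3, 16.7 and 26.7 CPM in null replicates 1 to 4 and 3.83, 2.62, 2.59 and 1.81 CPM in intact replicates. In differentiating cells it was at 17.9, 22.8, 21.7 and 18.1 CPM in null and 6.73, 9.85, 12 and 9.37 CPM in intact libraries. Neither pair of groups overlapped. Null against intact, the log2 fold change was 2.95 ± 0.22 (edgeR adjusted p = 3.02e-07) in proliferating and 1.18 ± 0.20 (adjusted p = 2.43e-04) in differentiating cells. Without null proliferating replicate 4 the first was 2.77 (adjusted p = 6.5e-07). Per length, Myl9 averaged 18.2 ± 4.31 RPKM in null proliferating cells, between Tpm1 at 30.9 ± 1.38 RPKM and Tagln at 7.93 ± 3.83 RPKM.

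Des, the desmin gene, had 31 counts over the 4 null and 59 over the 4 intact proliferating libraries, and 15 and 6 after differentiation. Null proliferating libraries held 0.179 to 0.377 CPM and intact ones 0.460 to 0.909 CPM, with no overlap. The log2 fold change of -1.29 ± 0.55 missed the threshold (edgeR adjusted p = 0.0777), and it passed when the fit held the 8 proliferating libraries alone (edgeR adjusted p = 0.0182) and without the 2 intact libraries numbered 1 (adjusted p = 0.0409). It also passed without null differentiating replicate 3, a library outside this comparison with 0 counts of Des (edgeR adjusted p = 0.0265). In differentiating cells the log2 fold change was 1.18 ± 0.85 (edgeR adjusted p = 0.277) on a few counts per library.

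**Figure D2:**
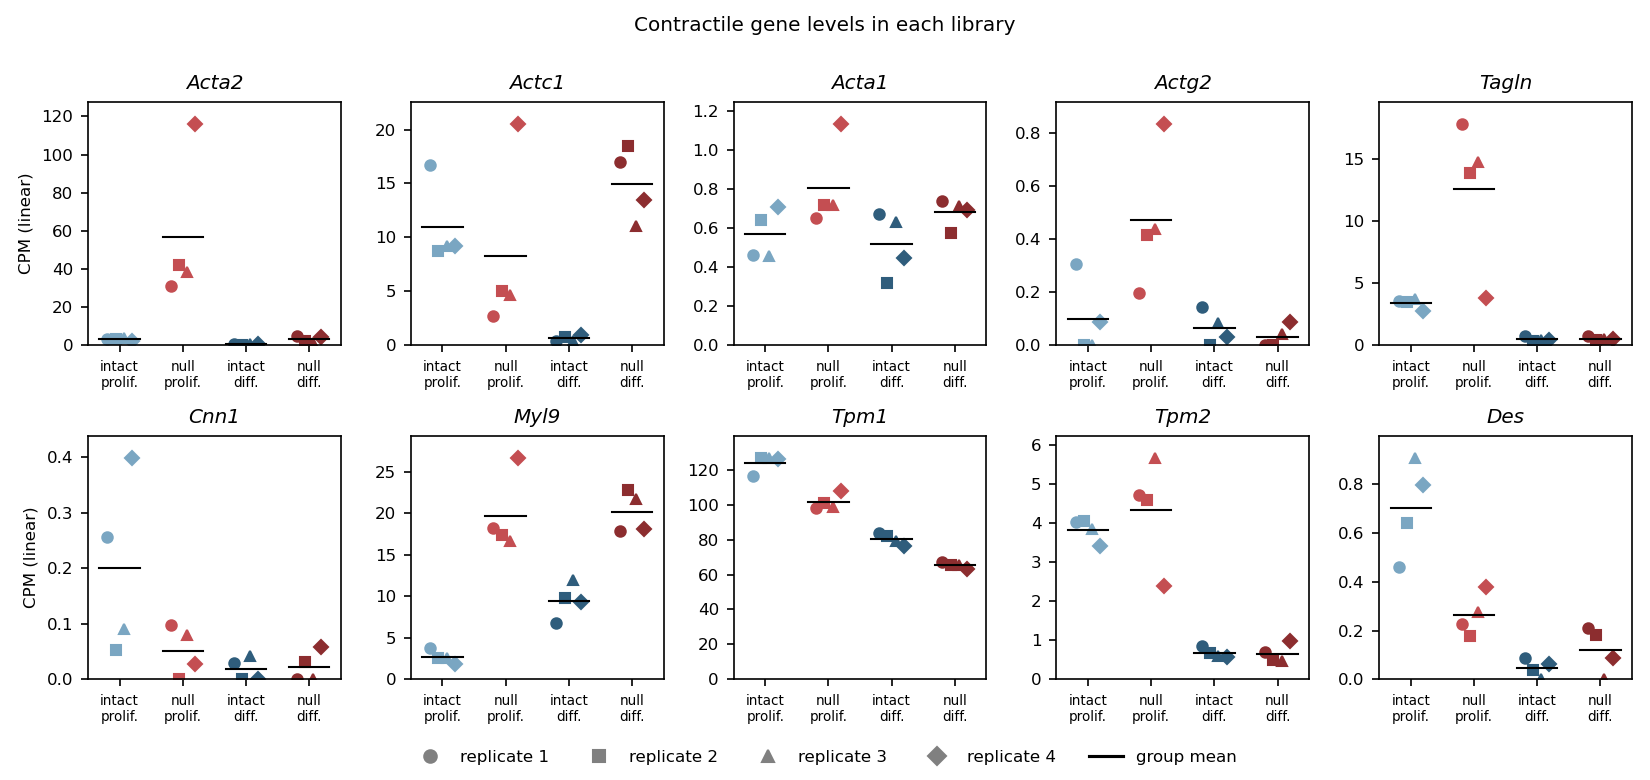
Each panel gives the CPM of 1 gene (linear axis, its own scale) in the 16 libraries by group, with a symbol for each replicate number and a line at the group mean. Acta2, Tagln and Myl9 are high in the null proliferating libraries, Actc1 and Myl9 in the null differentiating ones, and null proliferating replicate 4 (diamond) is high for Acta2 (116 CPM) and Actc1 (20.5 CPM) and low for Tagln (3.83 CPM).

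Read over the 8 genes that were named by function, the rise without KAT7 in proliferating cells took in Tagln and Myl9. Of the 6 of them that were tested, 2 were higher (19% of all tested genes were), 1 was lower (Tpm1, beside 19.7% of all genes) and 3 were not called. In all, 38.6% of the tested genes were called in this comparison, and the libraries of 40.2% did not overlap. The median log2 fold change of the 6 was 0.42, against -0.01 over all tested genes. In differentiating cells 1 of the 6 was higher (Myl9, beside 24.3% of all genes) and 1 lower (Tpm1, beside 22% of all genes), with 46.4% of all tested genes called and 43.7% without overlap. The median of the 6 was 0.32 there, against 0.04 over all tested genes. With scaling by library size alone, genes that were higher without KAT7 fell from 49.1 to 36.7% of the called genes in proliferating cells and from 52.5 to 39.4% in differentiating cells. Without both intact libraries numbered 1, 3 of 7 tested genes were higher in proliferating cells and 2 lower, with Actg2 and Des added to the calls.

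**Figure D3:**
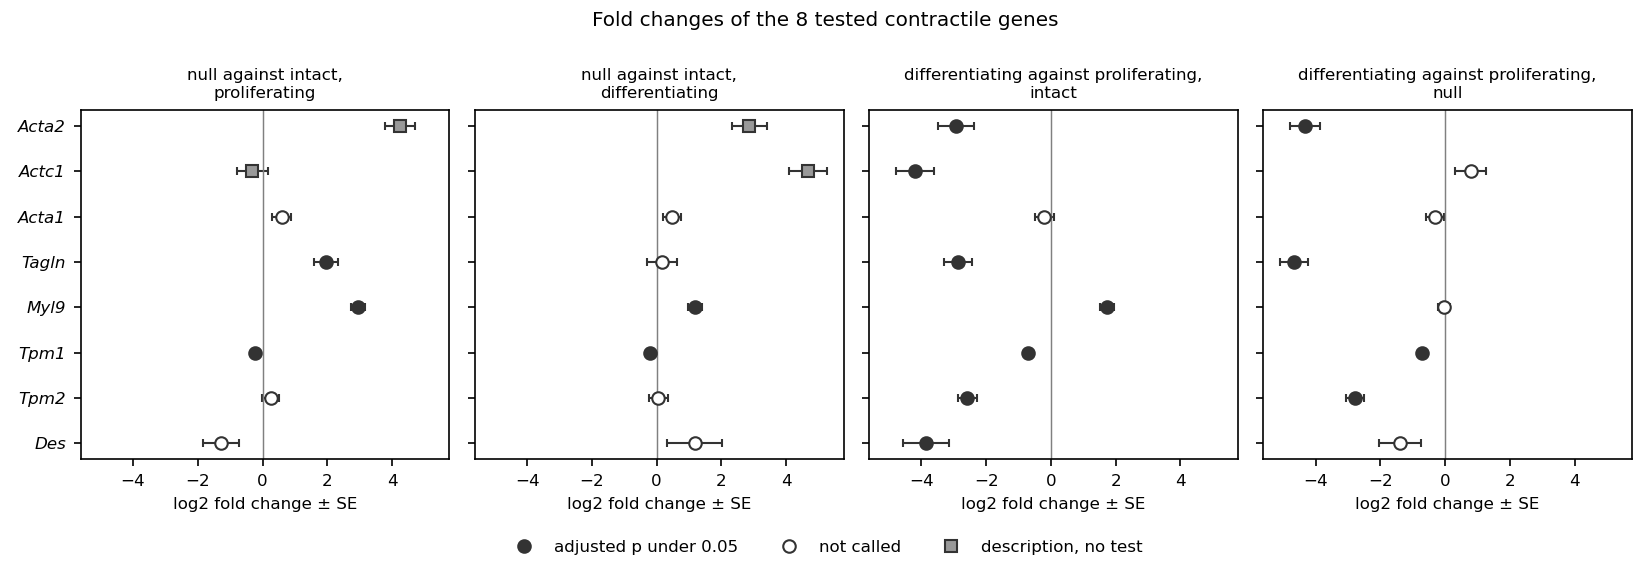
Points give the log2 fold change and bars its SE for the 8 tested genes in the 2 genotype comparisons and the 2 comparisons of differentiating with proliferating cells, with filled circles for an adjusted p under 0.05 and grey squares where no test is given. Tagln and Myl9 lie to the right of 0 in proliferating cells and Tpm1 just to the left (-0.22), while in the intact response to differentiation 6 genes lie to the left with filled circles and Acta1 (-0.20) lies there without a call.

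Many of these genes were lower in differentiating cells. The contrasts of this kind share their libraries with the genotype comparisons above, and each genotype is given on its own. Acta2 and Actc1 were chosen by their levels in these same libraries. Their adjusted p in either response, and their place in the counts of called genes, are therefore not evidence apart from that choice. In intact cells 6 of 8 tested genes fell and 1 rose, where 35.3 and 36.7% of all tested genes did (72% called in all, 62.4% without overlap). The log2 fold change was -4.20 ± 0.58 for Actc1 (edgeR adjusted p = 1.37e-05), -3.85 ± 0.70 for Des (1.75e-04, and -4.52 without both intact libraries numbered 1), -2.94 ± 0.56 for Acta2 (2.50e-04), -2.87 ± 0.43 for Tagln (2.54e-05), -2.58 ± 0.29 for Tpm2 (1.66e-06) and -0.70 ± 0.06 for Tpm1 (1.12e-07). Myl9 was the exception and rose by 1.74 ± 0.22 (edgeR adjusted p = 5.22e-06). Acta1 did not pass the threshold (log2 fold change -0.20 ± 0.30, edgeR adjusted p = 0.553).

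In null cells 4 of 8 fell and none rose by edgeR's test, where 34.4 and 34.6% of all tested genes did (69% called in all, 66.7% without overlap). None rose by DESeq2 or at an unadjusted p under 0.05 either. The values were -4.67 ± 0.43 for Tagln (edgeR adjusted p = 2.02e-07), -4.32 ± 0.47 for Acta2 (1.14e-06, and -3.70 without null proliferating replicate 4), -2.78 ± 0.29 for Tpm2 (6.44e-07) and -0.70 ± 0.06 for Tpm1 (1.13e-07), all log2. Des had a log2 fold change of -1.38 ± 0.65 (edgeR adjusted p = 0.0713), and Myl9 one of -0.03 ± 0.20 (adjusted p = 0.891). Actc1, which was 18.3-fold lower after differentiation in intact cells, had a log2 fold change of 0.79 ± 0.48 in null cells (edgeR adjusted p = 0.154). Without null proliferating replicate 4 this was a rise of 1.81 (edgeR adjusted p = 1.46e-04). As Actc1 was chosen by its levels in these libraries, neither value is evidence apart from that choice.

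The difference between the null and the intact response was tested for the 6 function-named genes, where 2 were lower in null cells (9.93% of all tested genes were, and 22.7% were called in all). For Myl9 the null response minus the intact one was -1.77 ± 0.29 on the log2 scale (edgeR adjusted p = 8.29e-04). For Tagln it was -1.80 ± 0.58 (edgeR adjusted p = 0.0376), a call that 10 of the 16 fits without 1 library did not keep. These adjusted p were 0.0534 to 0.112, the last without intact differentiating replicate 1, and the call was also lost without both intact libraries numbered 1 (adjusted p = 0.132). For Des it was 2.47 ± 1.01 (edgeR adjusted p = 0.0918), and 2.99 without null differentiating replicate 3 (edgeR adjusted p = 0.0148), so that call rests on leaving out this library. Acta2 and Actc1 had interaction values of -1.38 ± 0.73 and 4.98 ± 0.75, with no test. The value for Actc1 was 6 without null proliferating replicate 4, and that for Acta2 was -0.76.

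Beyond the 10 genes, the smooth muscle list did not move one way. The counts of this and every later list stand beside large shares over all tested genes. Without KAT7, 19% of these were higher and 19.7% lower in proliferating cells, and 24.3 and 22% in differentiating cells. A list with calls near these shares does not stand out from the other genes. Of 12 other smooth muscle contractile genes 8 were tested, and in proliferating null cells 2 were higher and 4 lower (median log2 fold change -0.13). The LIM-domain gene Pdlim3 was higher (2.43 ± 0.310 against 0.478 ± 0.241 CPM, log2 fold change 2.44 ± 0.53, edgeR adjusted p = 0.00216), while the smoothelin gene Smtn (-0.69 ± 0.10), the actin-binding nexilin gene Nexn (-1.80 ± 0.29) and the myosin phosphatase subunit gene Ppp1r12b (-0.55 ± 0.10) were lower. In differentiating cells 1 was higher and 4 lower (median -0.34). Csrp1, a LIM-only protein gene of smooth muscle, was higher at 147 ± 17.5 against 51 ± 11 CPM (log2 fold change 1.63 ± 0.12, edgeR adjusted p = 1.85e-07), and Smtn (-0.82), Nexn (-1.85) and Ppp1r12b (-0.32) were again lower. Without both intact libraries numbered 1, 5 were higher and 4 lower of 10 tested in proliferating cells, and 3 were higher and 4 lower in differentiating cells.

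The genes that define mature smooth muscle were near the detection limit. Myh11, the smooth muscle myosin heavy chain, had 46 counts over the 4 null and 8 over the 4 intact proliferating libraries, and 57 and 20 after differentiation. Its highest library held 0.620 CPM (null proliferating replicate 4). The leiomodin gene Lmod1 had 71 against 3 counts in proliferating and 29 against 2 counts in differentiating libraries. Both genes thus had more counts without KAT7 in both conditions, the direction of Acta2. The null and intact totals were 109775388 and 82880107 counts in proliferating cells, and 144087263 and 114908978 in differentiating cells. Neither gene was tested in the main fit. Myocd, the gene of the cofactor myocardin, had 0 counts in the 8 null libraries, which allows up to 0.0118 CPM over them (3 counts), and 4 counts in the intact libraries. These limits cover counting error only.

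Of 16 cardiac sarcomere genes 8 were tested. In proliferating null cells 2 were higher and none lower (median 1.21). None was lower by DESeq2 or at an unadjusted p under 0.05 either. The 2 higher genes were the atrial light chain gene Myl4 (1.68 ± 0.201 against 0.668 ± 0.203 CPM, log2 fold change 1.42 ± 0.22, edgeR adjusted p = 1.42e-04) and the alpha myosin heavy chain gene Myh6 (1.07 ± 0.537 against 0.243 ± 0.113 CPM, 2.24 ± 0.46, adjusted p = 0.00142). In differentiating null cells 2 were higher, Myl4 (0.96 ± 0.21) and Nppa, and 3 lower (median -1.26). The lower ones were the calcium release channel gene Ryr2 (0.259 ± 0.0709 against 8.46 ± 5.61 CPM, log2 fold change -4.94 ± 0.60, edgeR adjusted p = 1.29e-05), the actinin gene Actn2 (-2.79 ± 0.48) and the beta myosin heavy chain gene Myh7 (-1.94 ± 0.58). The call of Myh7 was lost without intact differentiating replicate 1 (edgeR adjusted p = 0.118), and that of Nppa in 4 fits without 1 library. Without both intact libraries numbered 1, 1 cardiac gene was higher and 2 were lower in differentiating cells. The heart transcription factor genes Gata4, Nkx2-5 and Hand2 had 0 counts in all 16 libraries, which allows up to 0.00664 CPM, Gata6 had 3 counts and Tbx5 had 2.

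Of 13 skeletal muscle genes 6 were tested. The slow skeletal troponin T gene Tnnt1 was the one that rose, at 73.7, 51.0, 54.1 and 110 CPM in null proliferating replicates 1 to 4 against 3.68, 6.2, 6.5 and 6.15 CPM in the intact ones (log2 fold change 3.75 ± 0.35, edgeR adjusted p = 1.90e-06). After differentiation it was at 1.57 ± 0.911 and 1 ± 0.303 CPM (0.75 ± 0.40, adjusted p = 0.137). As for Acta2, null proliferating replicate 4 was its highest library. The perinatal myosin gene Myh8 was lower in both conditions (-2.73 ± 0.76, edgeR adjusted p = 0.0103, and -4.74 ± 0.83, adjusted p = 2.78e-04). The other 12 skeletal genes summed to 1.66 to 3.24 CPM in null and 2.46 to 3.50 CPM in intact proliferating libraries, which overlapped.

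The gene of serum response factor itself was not called in proliferating cells. Srf averaged 49.1 ± 4.48 CPM with KAT7 and 44.1 ± 4.14 CPM without it while cells proliferated (log2 fold change -0.08 ± 0.08, edgeR adjusted p = 0.439). Of the 14 genes of SRF, its cofactors and muscle transcription factors 8 were tested, and 2 were higher and none lower in proliferating null cells (median 0.03), with none lower by DESeq2 or at an unadjusted p under 0.05. Without both intact libraries numbered 1, 3 were higher and 1 lower, and in differentiating cells 3 higher and 2 lower. Mrtfb, an actin-sensing SRF cofactor, was at 78.0, 75.5, 74.7 and 118 CPM in null and 33.0, 46.4, 45.3 and 51.6 CPM in intact proliferating replicates 1 to 4 (log2 fold change 1.04 ± 0.19, edgeR adjusted p = 6.48e-04), and Mef2a was higher by 0.42 ± 0.12. In differentiating cells Elk4 was higher (0.51 ± 0.10), and Mef2c (-3.85 ± 0.62) and Srf (-0.19 ± 0.08, edgeR adjusted p = 0.0486) lower. The Srf call did not hold without some single libraries of either genotype, with an adjusted p of up to 0.152.

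Of 15 other targets of SRF and MRTF, 13 were tested, and 5 were higher and 2 lower in proliferating null cells (median 0.19). Over all tested genes 38.6% were called in this comparison, and 46.4% in differentiating cells. The focal adhesion gene Vcl (0.68 ± 0.15) and the actin cross-linker gene Flna (0.38 ± 0.10) were higher, and Filip1l (-2.16 ± 0.29) and the adhesion gene Zyx (-0.40 ± 0.10) lower. In differentiating cells 4 were higher and 3 lower (median 0.21). The non-muscle myosin gene Myh9 (1.09 ± 0.18) and Flna (0.40 ± 0.10) were higher, and the thrombospondin gene Thbs1 (-2.77 ± 0.22) and the LIM gene Fhl2 (-4.86 ± 0.55) lower.

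The close relatives of the 10 genes that work outside muscle also split. All 12 were tested, and 3 were higher and 2 lower in proliferating null cells (median -0.04): Actg1 (0.44), Actb (0.25 ± 0.08, edgeR adjusted p = 0.0232) and the light chain gene Myl6 (0.54 ± 0.09) against Myl12b (-0.32 ± 0.09) and Tagln2 (-0.73 ± 0.21). Myl12b encodes the non-muscle counterpart of Myl9, and Tagln2 that of Tagln, so both differed in the opposite direction to their muscle relatives. The Actb call was lost with scaling by library size alone (adjusted p = 0.115) and without any of 3 single libraries (up to 0.0783 without null proliferating replicate 3). In differentiating cells the intermediate filament gene Vim (1.15 ± 0.16) and the calponin relative Cnn3 (0.46 ± 0.13) were higher, and Cnn2 (-0.61 ± 0.22) and Tpm3 (-0.27 ± 0.10) lower.

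**Figure D4:**
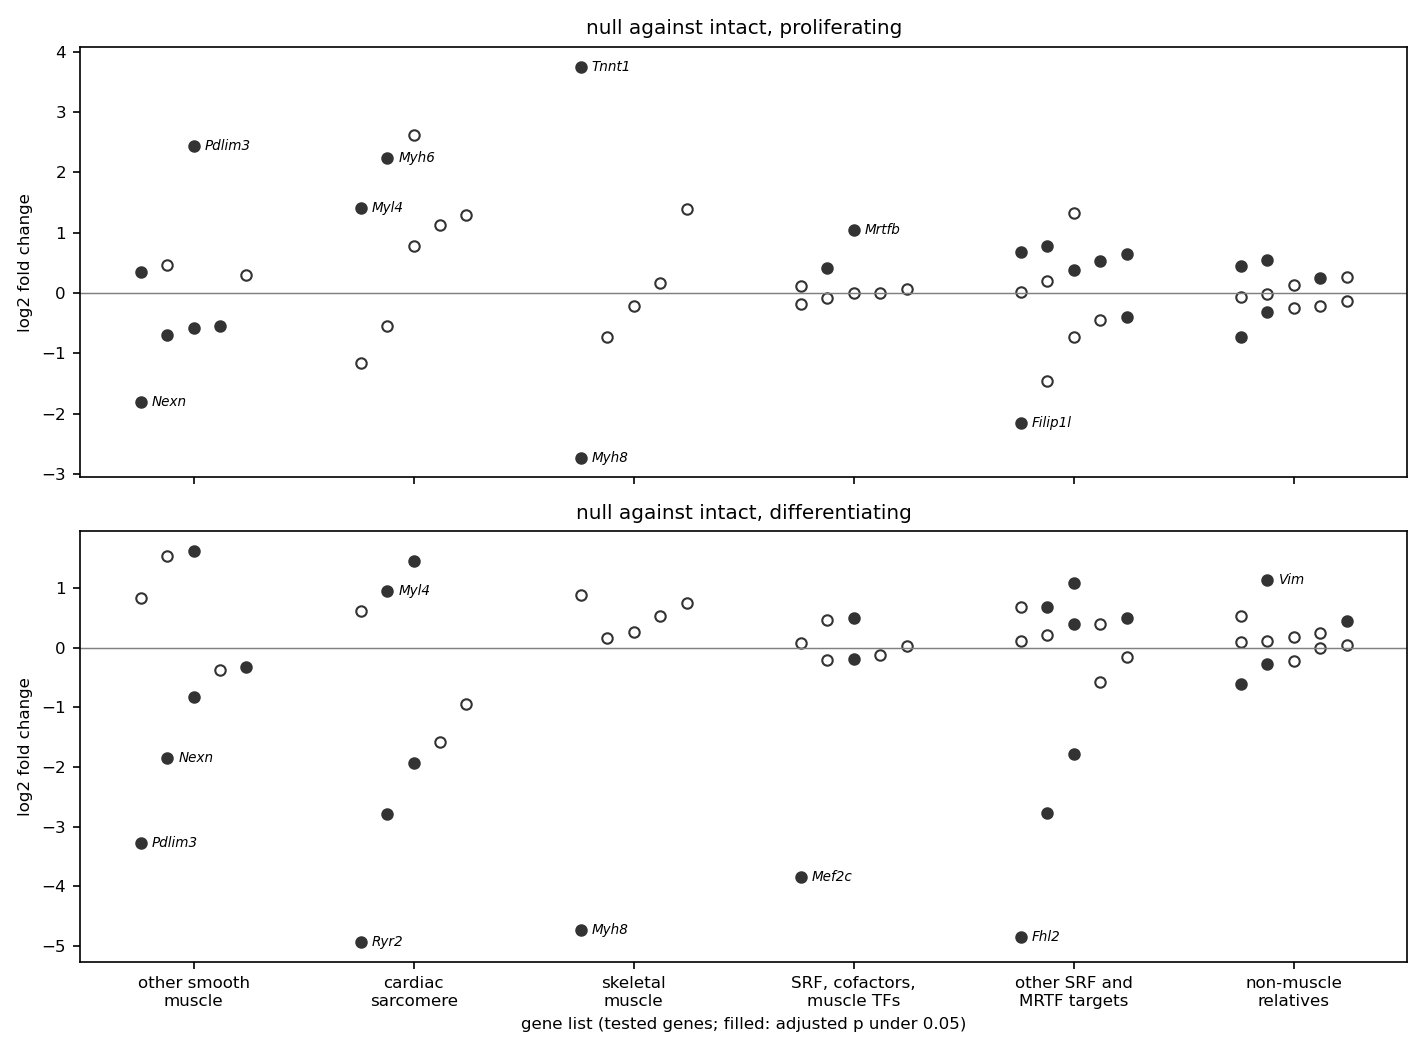
Points give the log2 fold change of each tested gene of 6 related lists, null against intact, in proliferating (top) and differentiating (bottom) cells, with filled points for an adjusted p under 0.05 and the most changed genes named. Each list has points on both sides of 0 in both panels, and Tnnt1 is the highest point of the top panel at 3.75.

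TGF-beta signalling induces Acta2 and Tagln in many mesenchymal cells, and its genes were read as a list. Like the others, this list was chosen with earlier results of these data known. Its part in the levels of Acta2 and Tagln was not tested. Of 11 genes 10 were tested, and 3 were higher and none lower in proliferating null cells (median 0.38), with none lower by DESeq2 or at an unadjusted p under 0.05. Without both intact libraries numbered 1, 5 were higher. With all libraries, the 3 were the ligand genes Tgfb1 (1.93 ± 0.321 against 0.778 ± 0.197 CPM, log2 fold change 1.38 ± 0.22, edgeR adjusted p = 1.73e-04) and Tgfb3 (0.93 ± 0.23), and the signal transducer gene Smad3 (82.7 ± 2.25 against 53.0 ± 5.25 CPM, 0.71 ± 0.10, adjusted p = 8.64e-05). In differentiating null cells Tgfb1 (1.90 ± 0.23) and Smad3 (0.77 ± 0.10) were higher, and the latent binding protein gene Ltbp1 (-2.32 ± 0.35) and the inhibitory Smad7 (-1.70 ± 0.30) were lower (median -0.16).

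Markers of the other cell types that make Acta2 were read beside it. Of 10 mural cell (pericyte and vascular smooth muscle) markers 5 were tested, and none was called in proliferating cells by edgeR's quasi-likelihood test. At an unadjusted p under 0.05, and by DESeq2, 1 was higher, and 2 were higher without both intact libraries numbered 1. Notch3, which progenitors also express, was at 173, 147, 137 and 233 CPM in null and 189, 108, 105 and 109 CPM in intact proliferating replicates 1 to 4 (log2 fold change 0.52 ± 0.21, edgeR adjusted p = 0.0563). Its highest library was null replicate 4, which also had the most Acta2, and the groups overlapped through intact replicate 1. The other 9 mural markers summed to 1.40 to 2.09 CPM in null and 0.954 to 4.85 CPM in intact proliferating libraries. After differentiation the sums were 14.9 to 20.1 CPM in null and 34.5 to 41.0 CPM in intact libraries. Of these 9 genes, 8 averaged under 1 CPM in null and 7 in intact differentiating cells, so few genes set the sums. With Notch3 the direction was the opposite, at 247 to 340 CPM in null and 119 to 179 CPM in intact differentiating libraries. In proliferating libraries the sums with Notch3 were 139 to 235 CPM in null and 106 to 194 CPM in intact ones. Kcnj8, Higd1b and Abcc9 had 0 counts in the null libraries of both conditions, and Rgs5 had 6 counts in null and 7 in intact proliferating libraries. Notch3 was higher in differentiating null cells (1.38 ± 0.21), as was Ndufa4l2 (1.46 ± 0.38), and Vtn was lower (-3.68 ± 0.85). The part of such cells in the Acta2 level was not tested.

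Fibroblast and meningeal markers were lower in null differentiating cells for the most part, and mostly not called in proliferating ones. Of 10 such genes 9 were tested, and 1 was higher (Prrx1, 1.09 ± 0.17, which was at 113 ± 15.7 CPM) and 3 lower in proliferating null cells, namely Col1a2 (-2.61 ± 0.79), Col3a1 (-3.50 ± 1.14) and Dcn (-5.51 ± 1.84). The calls of Col3a1 and Dcn were each lost without some single libraries (edgeR adjusted p up to 0.0756 without null proliferating replicate 4). In differentiating null cells 8 were lower and Prrx1 (1.19) higher, with Col1a1 at -3.47 ± 0.60, Islr at -3.96 ± 0.72 and Col1a2 at -3.41 ± 0.66. The whole list summed to 96.4 to 129 CPM in null and 61.2 to 75.4 CPM in intact proliferating libraries. After differentiation the whole list summed to 76.9 to 126 CPM in null and 75.6 to 206.5 CPM in intact libraries, which overlapped. Prrx1 made up most of the sums in proliferating libraries. Without Prrx1 the direction there was the opposite, and the list summed to 5.04 to 6.42 CPM in null and 10.2 to 13.3 CPM in intact proliferating libraries. In null differentiating replicates 1 to 4 the list without Prrx1 summed to 7.57, 1.79, 1.34 and 12.1 CPM, where Acta2 was also higher in replicates 1 and 4. In intact differentiating replicates 1 to 4 it summed to 180, 76.3, 42.8 and 22.8 CPM. Acta2 did not follow it there and was highest in replicate 4 (0.570 CPM), which had the lowest sum. Acta2 had 8 to 18 counts in each of these intact libraries, so their order by Acta2 is uncertain. The part of such cells in the Acta2 level of differentiating libraries was not tested.

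Of 10 endothelial markers 6 were tested, and the receptor gene Kdr was lower in both conditions (-3.72 ± 0.46 and -3.32 ± 0.36) with no other call. The 10 summed to 3.10 to 4.09 CPM in null and 5.18 to 6.85 CPM in intact proliferating libraries, and Cdh5 and Tie1 had 0 counts in null cells. None of 6 neural crest markers and none of 6 microglia and blood markers passed the filter on low counts. Neural crest markers summed to at most 0.863 CPM in any proliferating library and microglia and blood markers to at most 0.228 CPM. Of 8 neural stem and progenitor markers, 2 were higher (Sox1, 0.83 ± 0.13, and Nes, 0.39 ± 0.12) and 1 lower (Sox2, -0.52 ± 0.19, edgeR adjusted p = 0.0407) in proliferating null cells, and 6 were higher in differentiating null cells, among them the receptor gene Notch1 (0.86 ± 0.16). The Sox2 call was lost in 10 of the 16 fits without 1 library.

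Null proliferating replicate 4 differed from its group in other genes as well. The meningeal transcription factor gene Foxc1 had 85 counts there against 2 to 7 in the other 3 null proliferating libraries, at 2.29 CPM, which is inside the range of 0.817 to 3.05 CPM in the intact proliferating libraries. The endothelial gene Cldn5 had 15 counts there against 0 to 1. The lists of these genes gave a mixed picture. The endothelial markers summed to 3.91 CPM there, within the 3.10 to 4.09 CPM of the group. Without Prrx1 the fibroblast and meningeal list summed to 6.42 CPM, the highest of the group, and with it to 96.4 CPM, the lowest. Mural markers without Notch3 summed to 1.40 CPM, also the lowest. Relative to the median of the other 3 libraries, this library was at 4.38 times for Actc1, 3.03 for Acta2, 1.58 for Acta1 and 1.54 for Myl9, and at 0.259 for Tagln and 0.508 for Tpm2. The part of other cells in these values was not tested.

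The genes nearest in pattern to Acta2 over the 16 libraries were not on the list of 10. By the root mean square difference of centred log2 CPM, a measure of likeness that is 0 for the same pattern, the nearest of 12356 genes compared were Gna14 (0.72), Tcim (0.79), Tnnt1 (0.91), Igfbp4 (0.92) and Lpin3 (0.93), where the median gene was at 2.51. Gna14 was at 19.1, 2.34, 1.24 and 0.0929 CPM in null proliferating, intact proliferating, null differentiating and intact differentiating cells (group means). Igfbp4, a binding protein for insulin-like growth factors, was the most abundant of them at 684, 121, 25.1 and 10.7 CPM in the same order. Nearest to Actc1 were Svep1 (0.87), Hrh1 (0.89), S100a10 (0.91), S100a11 (0.93) and Cdkn2a (1.02), where the median gene was at 1.92. Hrh1, a histamine receptor gene, was at 23.5, 20.7, 15.8 and 1.38 CPM, and S100a10 at 60.6, 144, 66.2 and 4.42 CPM, so both shared with Actc1 a low level in intact differentiating cells alone. Acta1, Actg2, Cnn1 and Des averaged under 1 CPM and were not compared, and none of the other genes of the list was among the 5 nearest to Acta2 or to Actc1.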

How the data were processed

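Polyadenylated RNA of 16 libraries was sequenced as 75-base paired-end reads, per the labels' protocols. Each deposited file gives 1 library's raw counts by gene next to the gene model length, per the file headers. Per the submitters' processing notes, bcl2fastq and featureCounts were used with mm10, and their versions, the aligner, the annotation and the use of strand are not given in the sources used. Gene identifiers were matched to symbols with the RefSeq table of GRCm38.p6 (25275 of 27179). A further table combining these counts was left out.

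The model was edgeR 4.0.16 (R 4.3.3). The filterByExpr function (minimum count 10, by group) chose the genes to test, and libraries were scaled by TMM (the trimmed mean of M values). The quasi-likelihood fit had 1 mean per group over all 16 libraries and no block (common biological coefficient of variation 0.2). P-values were adjusted by Benjamini-Hochberg over the 15177 tested genes and called under 0.05. Fold changes are log2, and SE is the estimate divided by the square root of F, which understates the error of a group with few counts. The pipeline was tested on simulated counts with a few known changes and the same spread for every gene. That setting is simpler than these data. CPM divides counts by the library total, and RPKM further by the gene model length. Library totals limit the precision of low counts.

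The 10 genes and all lists were chosen with earlier results of these data known, so no list is independent evidence of its direction. All 10 genes are named. From the other lists at least the up to 4 called genes with the lowest adjusted p in each genotype comparison are named, others freely, and the 5 genes nearest in pattern to Acta2 and to Actc1 were taken among genes averaging 1 CPM or more (log2 CPM with a prior count of 2). Alternatives were library size and DESeq2 size factor scaling, a minimum count of 30, no filter, DESeq2 1.42.0, a test against 1.5-fold, fits of 8 libraries, replicate blocks, and leaving out libraries. CArG boxes were searched in RefSeq's promoter sequences. In the GENCODE M21 transcripts, no 75-base stretch of 9 of the 10 genes was shared with another gene, and 0.437% of those of Acta1 were.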

Additional observations from a re-analysis of the deposited data

Results flagged for a closer look

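Among groups of 4 libraries, 6 values of the 10 genes lay far from the other 3 by Dixon's test, which chance alone does in about 1 of 20 groups. Null proliferating replicate 4 was far above its group for Acta2 (116 CPM), Actc1 (20.5 CPM), Acta1 (1.13 CPM) and Myl9 (26.7 CPM). Intact proliferating replicate 1 was above its group for Actc1 (16.8 CPM) and below it for Tpm1 (117 CPM). The response to differentiation differed between genotypes for Tagln (null minus intact -1.80 on the log2 scale) and Myl9 (-1.77), by edgeR's interaction test. The Tagln call depended on single libraries, as given above, and the Myl9 call held in every fit run.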

How the results depend on the processing

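Of the counts of called genes, 3 in proliferating cells became 5 without both intact libraries numbered 1 and 2 with the test against 1.5-fold, and 2 in differentiating cells became 1 with the test against 1.5-fold. The 2 called in the interaction became 1 with the test against 1.5-fold, with the isolate replicate block and without both intact libraries numbered 1. When 1 library was left out, the counts ran from 3 to 4 in proliferating and 2 to 3 in differentiating cells for genotype, stayed at 7 in the intact response, and ran from 4 to 6 in the null response and 1 to 3 in the interaction. Apart from the 1.5-fold test, fewer libraries or the block, the cause of these changes was not tested. Values near 0 changed sign: Tagln in differentiating cells ran from -0.052 to 0.52 with 1 library left out (lowest without null differentiating replicate 1). Tpm2 there was -0.031 with library size scaling, -0.0031 with DESeq2 and -0.0012 with 8 libraries, and ran from -0.20 to 0.21 with 1 library left out (lowest without null differentiating replicate 4). Myl9 in the null response was 0.027 with library size scaling and ran from -0.11 to 0.15 with 1 library left out (highest without null proliferating replicate 4). None of these was called in any of these fits.

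Whether libraries of the same number come from 1 foetus is not stated, and they were not treated as pairs. Their residual correlations were 0.126, 0.123, -0.231 and 0.117 between conditions in intact cells, -0.0284 to 0.0331 in null cells and -0.106 to 0.0631 between genotypes. With the number as a replicate block, the counts were 3, 2, 7, 4 and 2, as without it. With the isolate replicate block, which assumes that equal numbers within a genotype mean 1 foetus, they were 7, 4 and 1, and Tagln in the interaction had an adjusted p of 0.0528. Over the other genes named, 248 of 4591 fold changes under an alternative lost their call and none changed sign. Genes with few counts (Actg2, Cnn1, Des, Dcn) are limited by depth.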
